A study of Mus musculus with 12 samples.

Results

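The mRNAs of 10 members of the NRF2 antioxidant pathway were followed in bone marrow-derived macrophages (BMDMs) of the mouse: Nfe2l2, Keap1, Hmox1, Nqo1, Gclc, Gclm, Srxn1, Txnrd1, Slc7a11 and Prdx1. They were taken by gene symbol from the raw count matrix, which held 43453 genes after the transcript with the highest total count was kept for each gene. All 10 were found, and all 10 passed the filter on low counts in every comparison. The study asked which molecules act downstream of TLR4, the receptor for lipopolysaccharide (LPS), in primary BMDMs. The libraries came from C57BL/6 mice of the genotype tlr4f/f, in which tlr4 carries loxP sites, and tlr4f/f-lysM-cre, in which Cre is driven by the promoter of lysM (Lyz2) and acts in myeloid cells. All BMDMs were differentiated with 50 ng/mL of M-CSF for 7 days. Each genotype was left untreated (LPS-) or received LPS (LPS+) at 1 µg/mL over 6 h, with 3 libraries per group and 12 libraries in all. The paper states an age for the mice of its nephritis model, but the sources used here give none for the donors of the BMDMs. Nothing in these sources says that the 3 libraries of a group came from separate mice, so the p-values measure the spread between these libraries.

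The headings of a pair of column groups in the deposited matrix were open to question. Tlr4, the targeted gene, was at 114 ± 34.8 CPM (counts scaled to library size with TMM factors; SD, n = 3) in the libraries labelled LPS- tlr4f/f and at 109 ± 12.7 CPM in those labelled LPS- tlr4f/f-lysM-cre. It was at 27.9 ± 3.37 CPM in the libraries labelled LPS+ tlr4f/f and at 25.5 ± 1.65 CPM in those labelled LPS+ tlr4f/f-lysM-cre. Tlr4 was therefore low by treatment heading and not by genotype heading, in counts that cover the whole transcript and not the floxed part alone. Lyz2, whose locus drives Cre, was split in the same way, with 5953 to 23331 CPM in the 6 libraries labelled LPS- and 10.4 to 75.3 CPM in the 6 labelled LPS+. Il1b, a cytokine gene induced by LPS, was split by genotype heading, with 0.075 to 6.95 CPM in the 6 libraries labelled tlr4f/f and 1633 to 8224 CPM in the 6 labelled tlr4f/f-lysM-cre. If LPS- tlr4f/f-lysM-cre was exchanged with LPS+ tlr4f/f in the headings, the low Tlr4 and Lyz2 would fall in tlr4f/f-lysM-cre and the high Il1b in LPS+. Libraries are therefore called by the label their column carries, and each comparison is given in both readings. The comparison of the libraries labelled LPS- tlr4f/f-lysM-cre with those labelled LPS- tlr4f/f is genotype without LPS as headed, and LPS in tlr4f/f when exchanged. LPS+ tlr4f/f against LPS- tlr4f/f is LPS in tlr4f/f as headed, and genotype without LPS when exchanged. LPS+ tlr4f/f-lysM-cre against LPS- tlr4f/f-lysM-cre is LPS in tlr4f/f-lysM-cre as headed, and genotype with LPS when exchanged. LPS+ tlr4f/f-lysM-cre against LPS+ tlr4f/f is genotype with LPS as headed, and LPS in tlr4f/f-lysM-cre when exchanged.

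NRF2, the product of Nfe2l2, is a transcription factor that KEAP1 binds and presents for ubiquitination under resting conditions. When cysteines of KEAP1 react with electrophiles or oxidants, NRF2 accumulates, pairs with a small MAF protein and binds the antioxidant response element before genes of glutathione synthesis, thioredoxin reduction, quinone reduction and haem breakdown. In macrophages the pathway is known for limiting oxidative damage during inflammatory activation, and much of its control is on the NRF2 protein, which RNA counts do not measure.

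The RefSeq promoter windows of the members (250 bases before to 50 after a start, GRCm38.p6) were searched because several members moved together between groups. Windows were given for 8 of the 10 genes, that is for Nfe2l2, Keap1, Nqo1, Gclm, Srxn1, Txnrd1, Slc7a11 and Prdx1. TGACNNNGC, the core of the antioxidant response element, was sought on both strands. It was found for 5 of the 8 genes and in 12.4% of 32851 windows of all genes. The 8 genes had 10 windows, and a gene was counted when any of its windows matched. The shares of all genes are per window, so the 2 kinds of share are not alike, here and for the motifs below. TGACTCA, the core shared by AP-1 and NRF2-small MAF sites, was found for 2 of the 8 genes and in 5.2% of all windows, and can overlap the first motif. TGATGCAA, an amino acid response element of the kind bound by ATF4 dimers, was found for 1 of the 8 genes, Slc7a11, and in 0.895% of all windows. The last 2 motifs were added after values had been seen. Matches describe letters only, and no test was made of them. The stretches below are shown 5′ to 3′ on the strand of the gene, with the motif or its reverse complement in capitals. Slc7a11 is shown for its paired and mirrored TGATGCAA matches, which begin at positions -66 and -47 (the base just before the start being -1), Srxn1 for its TGACTCA matches at positions -102 and -45, and the other 4 genes for TGACNNNGC.
Slc7a11, chr3:50443633-50443699, minus strand: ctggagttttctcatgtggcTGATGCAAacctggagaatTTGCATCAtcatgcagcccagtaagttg
Srxn1, chr2:152105402-152105505, plus strand: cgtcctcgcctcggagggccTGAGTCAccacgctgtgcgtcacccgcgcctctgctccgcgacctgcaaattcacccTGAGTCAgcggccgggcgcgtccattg
Prdx1, chr4:116685446-116685494, plus strand: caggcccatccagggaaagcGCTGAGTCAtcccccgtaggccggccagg
Gclm, chr3:122245403-122245451, plus strand: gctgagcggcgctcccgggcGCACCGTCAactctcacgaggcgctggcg
Txnrd1, chr10:82859094-82859142, plus strand: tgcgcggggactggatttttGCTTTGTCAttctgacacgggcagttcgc
Nfe2l2, chr2:75704875-75704913, minus strand: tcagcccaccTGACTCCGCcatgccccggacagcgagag
In Prdx1, the 9 capital letters hold TGACNNNGC and TGACTCA in overlap. The Txnrd1 stretch lies before a start inside the gene model. A TGACNNNGC match of Srxn1 began 29 bases after its start, in an exon. The windows of Keap1 and Nqo1 did not hold these letters.

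The libraries held between 33577440 and 56445989 counts over the genes, with a median of 45331247. Their TMM factors were 1.11 to 1.21 in LPS- tlr4f/f and 0.703 to 0.823 in LPS- tlr4f/f-lysM-cre. They were 1.16 to 1.19 in LPS+ tlr4f/f and 0.953 to 0.970 in LPS+ tlr4f/f-lysM-cre. Overlap between groups was read in CPM scaled with these factors and was not examined without them. The 8 macrophage markers, among them Adgre1 and Csf1r, summed to 6674 to 7703 CPM in LPS- tlr4f/f, 11498 to 14693 CPM in LPS- tlr4f/f-lysM-cre, 4846 to 5136 CPM in LPS+ tlr4f/f and 8442 to 8645 CPM in LPS+ tlr4f/f-lysM-cre, with none at the floor. Their sum was higher in the 6 libraries labelled tlr4f/f-lysM-cre than in the 6 labelled tlr4f/f, without overlap, and its part in the results was not tested. The 8 genes were Adgre1, Csf1r, Cd68, Itgam, Fcgr1, Mertk, Cd14 and Spi1, and only their sum was compared. The libraries with the higher sum were also those with high Il1b. Whether the markers themselves change with activation was not tested. The 7 markers of fibroblasts and stroma, among them Col1a1 and Pdgfra, varied most in the groups labelled LPS-. They summed to 669, 61.7 and 9.48 CPM in LPS- tlr4f/f and to 982, 188 and 1510 CPM in LPS- tlr4f/f-lysM-cre (replicates 1 to 3), against 20.9 to 25.5 CPM in LPS+ tlr4f/f and 45.4 to 57.6 CPM in LPS+ tlr4f/f-lysM-cre, with none of the 7 at the floor of 3 counts. The 7 neutrophil markers summed to 0.619 to 12.8, 13.3 to 170, 4.15 to 6.26 and 5.25 to 7.23 CPM in these 4 groups, with Ly6g at the floor in each. Lists for lymphocytes, erythroid cells, dendritic cells, and mast cells and basophils summed to at most 6.13 CPM in any library. The dendritic cell list summed to 0.206 to 0.395, 2.90 to 6.13, 0.191 to 0.652 and 2.55 to 3.02 CPM in the same 4 groups. It was thus higher in the libraries labelled tlr4f/f-lysM-cre, without overlap, and its part in the results was not tested. In RNA of a whole culture, fewer cells of a type and less RNA per cell cannot be told apart.

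The highest group mean was in LPS+ tlr4f/f-lysM-cre for 8 members and in LPS- tlr4f/f-lysM-cre for Keap1 and Nqo1. Slc7a11, Hmox1 and Nfe2l2 separated the 6 libraries labelled tlr4f/f-lysM-cre from the 6 labelled tlr4f/f without overlap, as did Keap1. These 4 of 10 members stand beside 15.6% of 15792 genes that were higher in the same 6 libraries without overlap. Nqo1 and Gclc followed the headings least. The levels of each gene are described next by role, followed by the comparisons.

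**Figure D1:**
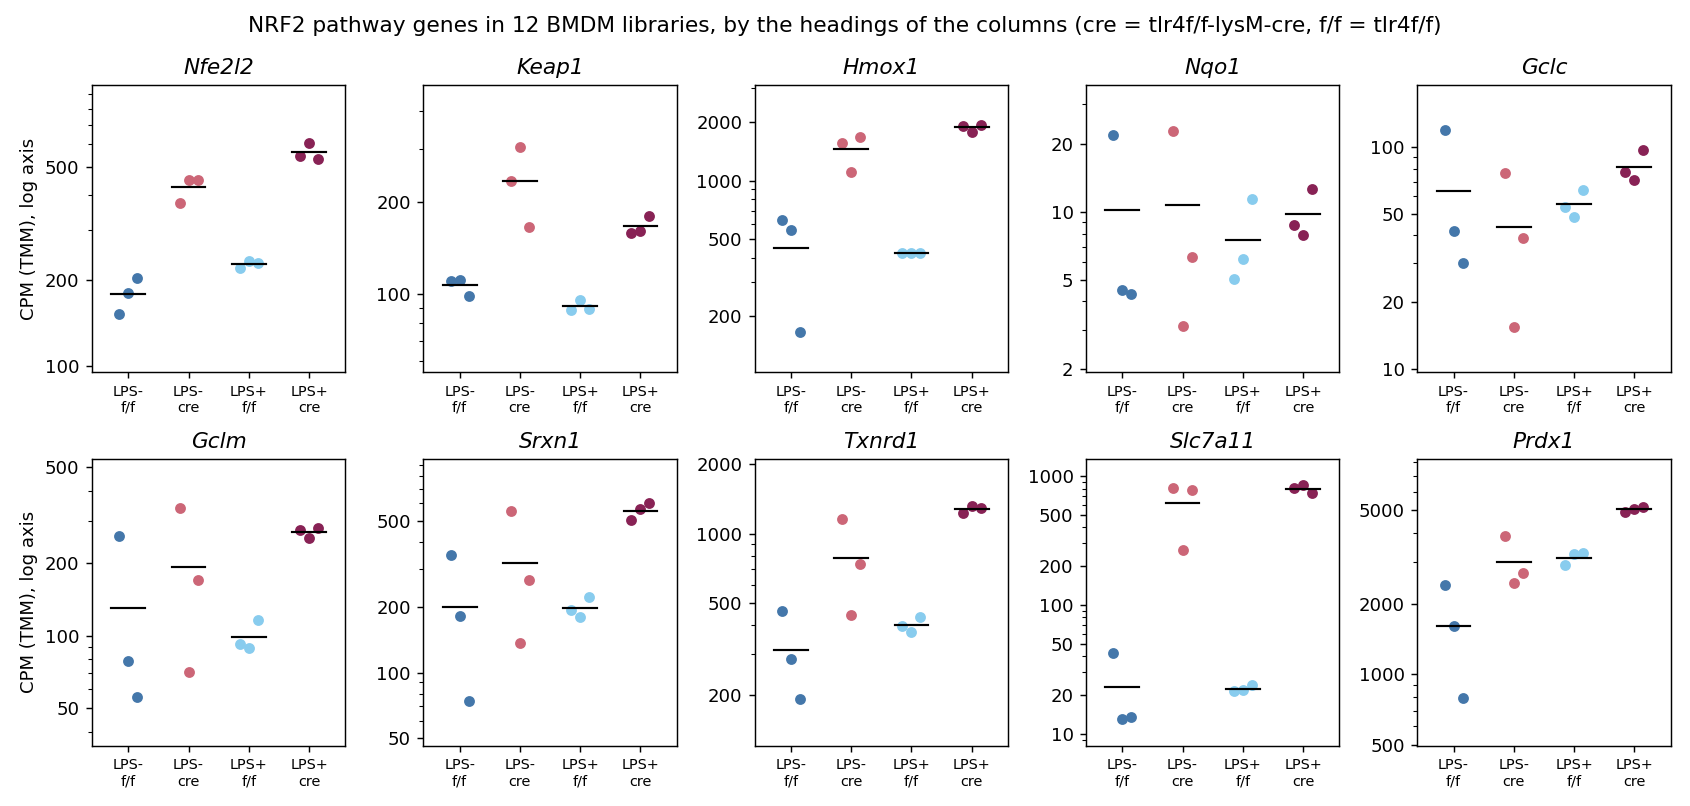
CPM of each of the 10 genes in the 12 libraries (log axes), by column heading. Points are libraries and black lines are group means. Slc7a11 lies at 12.9 to 42.6 CPM in the 6 libraries labelled tlr4f/f and at 269 to 853 CPM in the 6 labelled tlr4f/f-lysM-cre, whereas Nqo1 overlaps between all 4 groups.

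The first role is regulation. Nfe2l2 (chr2:75675513-75704641, minus strand, mm10) was at 152, 179 and 204 CPM in LPS- tlr4f/f and at 374, 449 and 450 CPM in LPS- tlr4f/f-lysM-cre. It was at 221, 234 and 230 CPM in LPS+ tlr4f/f and at 548, 607 and 532 CPM in LPS+ tlr4f/f-lysM-cre. The 4 groups did not overlap, and they lay in ascending order from LPS- tlr4f/f over LPS+ tlr4f/f, then LPS- tlr4f/f-lysM-cre, to LPS+ tlr4f/f-lysM-cre. Keap1 (chr9:21229730-21239361, minus strand), which encodes the repressor of NRF2, was at 111, 111 and 98.2 CPM in LPS- tlr4f/f and at 88.6, 95.6 and 89.1 CPM in LPS+ tlr4f/f. It was at 234, 304 and 166 CPM in LPS- tlr4f/f-lysM-cre and at 159, 161 and 180 CPM in LPS+ tlr4f/f-lysM-cre. The gene of the factor and the gene of its repressor were thus both higher in the columns labelled tlr4f/f-lysM-cre.

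The second role is cystine uptake and glutathione synthesis. Slc7a11 (chr3:49892526-50443614, minus strand) encodes xCT, the transporter subunit that exchanges glutamate for cystine. It was at 42.6, 12.9 and 13.5 CPM in LPS- tlr4f/f and at 21.3, 22.0 and 24.0 CPM in LPS+ tlr4f/f. The columns labelled tlr4f/f-lysM-cre held 803, 269 and 781 CPM under LPS- and 810, 853 and 734 CPM under LPS+, as headed. Every one of these 6 libraries was above every library labelled tlr4f/f, and replicate 2 of LPS- tlr4f/f-lysM-cre was the lowest of them. Gclc (chr9:77754535-77794485, plus strand) and Gclm (chr3:122245557-122270732, plus strand) encode the catalytic and the modifier subunit of glutamate-cysteine ligase, the rate-limiting enzyme of glutathione synthesis. Gclc was at 119, 41.8 and 30.2 CPM in LPS- tlr4f/f and at 76.7, 15.5 and 39.1 CPM in LPS- tlr4f/f-lysM-cre. With LPS, as headed, Gclc was at 53.6, 48.6 and 64.3 CPM in tlr4f/f and at 77.4, 71.1 and 96.9 CPM in tlr4f/f-lysM-cre. Gclc therefore overlapped between the groups labelled LPS- and not between those labelled LPS+. Gclm was at 259, 78.3 and 55.9 CPM in LPS- tlr4f/f and at 340, 70.8 and 170 CPM in LPS- tlr4f/f-lysM-cre. In the groups labelled LPS+ it was at 92.7, 89.2 and 116 CPM in tlr4f/f and at 275, 256 and 282 CPM in tlr4f/f-lysM-cre. Like Gclc, Gclm overlapped between the groups labelled LPS- and not between those labelled LPS+.

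The third role is the reduction of thioredoxin and peroxiredoxins. Txnrd1 (chr10:82833951-82897712, plus strand) encodes the cytosolic thioredoxin reductase. It was at 462, 287 and 193 CPM in LPS- tlr4f/f and at 1158, 444 and 741 CPM in LPS- tlr4f/f-lysM-cre. It was at 398, 375 and 437 CPM in LPS+ tlr4f/f and at 1224, 1321 and 1291 CPM in LPS+ tlr4f/f-lysM-cre. A single pair of libraries, replicate 1 of LPS- tlr4f/f and replicate 2 of LPS- tlr4f/f-lysM-cre, made the groups labelled LPS- overlap. Srxn1 (chr2:152105516-152111376, plus strand) encodes sulfiredoxin, which restores peroxiredoxins after overoxidation. Srxn1 was at 348, 182 and 73.6 CPM in LPS- tlr4f/f and at 552, 136 and 267 CPM in LPS- tlr4f/f-lysM-cre. It was at 193, 181 and 223 CPM in LPS+ tlr4f/f and at 503, 563 and 603 CPM in LPS+ tlr4f/f-lysM-cre. Its overlap between the groups labelled LPS- came with the widest values of the 3 genes of this role. Prdx1 (chr4:116685544-116700822, plus strand) encodes a peroxiredoxin that reduces hydrogen peroxide. Prdx1 was at 2401, 1603 and 794 CPM in LPS- tlr4f/f and at 3873, 2440 and 2694 CPM in LPS- tlr4f/f-lysM-cre. It was at 2913, 3241 and 3269 CPM in LPS+ tlr4f/f and at 4934, 5063 and 5177 CPM in LPS+ tlr4f/f-lysM-cre. LPS+ tlr4f/f-lysM-cre was the highest group and LPS- tlr4f/f the lowest, and neither overlapped any other.

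The fourth role is haem breakdown and quinone reduction. Hmox1 (chr8:75093621-75100589, plus strand) encodes the inducible haem oxygenase. It was at 627, 557 and 165 CPM in LPS- tlr4f/f and at 424, 424 and 421 CPM in LPS+ tlr4f/f. The columns labelled tlr4f/f-lysM-cre held 1571, 1107 and 1684 CPM under LPS- and 1906, 1786 and 1948 CPM under LPS+, as headed. The lowest of the latter 6 libraries was above the highest of the former 6. Nqo1 (chr8:107388225-107403206, minus strand) encodes a quinone reductase that is often read as a marker of NRF2 activity. Nqo1 was at 21.8, 4.51 and 4.33 CPM in LPS- tlr4f/f and at 22.8, 3.12 and 6.31 CPM in LPS- tlr4f/f-lysM-cre. It was at 5.05, 6.16 and 11.4 CPM in LPS+ tlr4f/f and at 8.72, 7.87 and 12.6 CPM in LPS+ tlr4f/f-lysM-cre. All pairs of groups overlapped, and the 2 highest libraries were the replicates 1 of the groups labelled LPS-.

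Per kilobase of transcript, which allows genes to be set side by side, the members spanned a wide range. In LPS+ tlr4f/f-lysM-cre the mean level was 3569 CPM per kb for Prdx1, 1193 for Hmox1, 374 for Txnrd1, 225 for Nfe2l2, 198 for Srxn1, 131 for Gclm, 86.6 for Slc7a11, 37.3 for Keap1, 22.5 for Gclc and 6.27 for Nqo1. In LPS+ tlr4f/f, Slc7a11 was the lowest of the 10 genes at 2.43 CPM per kb, below Nqo1 at 4.85 CPM per kb. Prdx1 was the highest in all 4 groups. The levels rest on a single transcript model per gene. In Keap1, Gclc, Txnrd1 and Slc7a11 the second model held 95.6% to 99.0% of the count of the first, since models of a gene share reads.

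With edgeR on the 6 libraries compared, the most members were called in LPS+ tlr4f/f-lysM-cre against LPS+ tlr4f/f. This comparison is of genotypes with LPS as headed, and of LPS with no LPS in tlr4f/f-lysM-cre when exchanged. All 10 members had a positive log2 fold change, with a median of 1.38 against -0.02 over all 14551 genes tested. Of these, 6 were DEGs (fold change above 2 and adjusted p below 0.01), all higher, while 10.8% of genes tested were DEGs with a higher level. Slc7a11 rose by a log2 fold change of 5.16 ± 0.08 (SE; adjusted p = 4.59e-13) and Hmox1 by 2.16 ± 0.06 (adjusted p = 1.03e-11). Txnrd1 rose by 1.68 ± 0.07 (adjusted p = 4.25e-10), Srxn1 by 1.49 ± 0.09 (adjusted p = 2.54e-07), Gclm by 1.46 ± 0.10 (adjusted p = 9.16e-07) and Nfe2l2 by 1.31 ± 0.06 (adjusted p = 1.79e-09). At an adjusted p below 0.05, 9 of 10 members were higher and 0 were lower, where 30.5% of all genes were higher and 31% lower. The 3 members called only at this level were Keap1 (0.88 ± 0.06, adjusted p = 8.09e-08), Prdx1 (0.70 ± 0.06, adjusted p = 6.40e-07) and Gclc (0.57 ± 0.15, adjusted p = 0.0175). Nqo1 was not called, with a log2 fold change of 0.37 and a 95% interval of -0.54 to 1.28. Without replicate 1 of LPS+ tlr4f/f, Gclc was not called (adjusted p = 0.0563), and without replicate 3 of that group Nqo1 was (0.80, adjusted p = 0.00634). In a single fit of all 12 libraries, which shares the spread of the groups labelled LPS-, 5 members were called and 4 were DEGs, all higher, where 16.3% and 7.45% of genes were. The summed macrophage markers, at 8442 to 8645 CPM against 4846 to 5136 CPM, were also higher in LPS+ tlr4f/f-lysM-cre, and their part in this result was not tested.

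For LPS- tlr4f/f-lysM-cre against LPS- tlr4f/f (genotype without LPS as headed, LPS in tlr4f/f when exchanged), 9 of 10 members had a positive log2 fold change. Their median was 1.01 and that of all 14649 genes tested -0.08. There were 2 DEGs among the members, both higher, where 9.26% of genes tested were. Slc7a11 rose by 4.75 ± 0.72 (adjusted p = 0.00417), and Nfe2l2 rose by 1.24 ± 0.18 (adjusted p = 0.00322). At an adjusted p below 0.05, 4 members were higher and 0 lower, where 17.9% of genes were higher and 19.4% lower. Keap1 (1.12 ± 0.23, adjusted p = 0.0108) and Hmox1 (1.68 ± 0.51, adjusted p = 0.0423) were the other two. Of the remaining 6 genes, Txnrd1 had a log2 fold change of 1.31 (95% interval 0.21 to 2.42, adjusted p = 0.0654) and Prdx1 of 0.90 (-0.15 to 1.95, adjusted p = 0.151), the latter with no overlap between the groups. The intervals were wide for Srxn1 (0.66, -0.999 to 2.31), Gclm (0.56, -1.25 to 2.38), Nqo1 (0.07, -2.17 to 2.30) and Gclc (-0.55, -2.27 to 1.18), and none of these 4 genes was called. DESeq2 called 5 of the members as DEGs, all higher, where 14.4% of genes were in that fit. At an adjusted p below 0.05 it called 6 members higher, where 23% of genes were. Txnrd1 (1.39, adjusted p = 0.00659) and Prdx1 (0.98, adjusted p = 0.0489) were among them. With a library left out the log2 fold changes of both DEGs stayed near these values, at 4.46 to 5.55 for Slc7a11 and 1.14 to 1.35 for Nfe2l2, while fewer genes and members were DEGs: 0 members were DEGs without replicate 2 of LPS- tlr4f/f or without replicate 1 of LPS- tlr4f/f-lysM-cre (4.14% and 5% of genes were higher DEGs), 1 was without any one of the other 4 (4.83% to 6.37%). Hmox1 had a log2 fold change of 1.59 to 1.87 and an adjusted p of 0.0645 to 0.0983 without replicate 2 of LPS- tlr4f/f or any one of the 3 libraries of LPS- tlr4f/f-lysM-cre. Stromal markers were higher in LPS- tlr4f/f-lysM-cre replicates 1 and 3 than in the 4 other libraries of this comparison, and their part in the result was not tested.

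**Figure D2:**
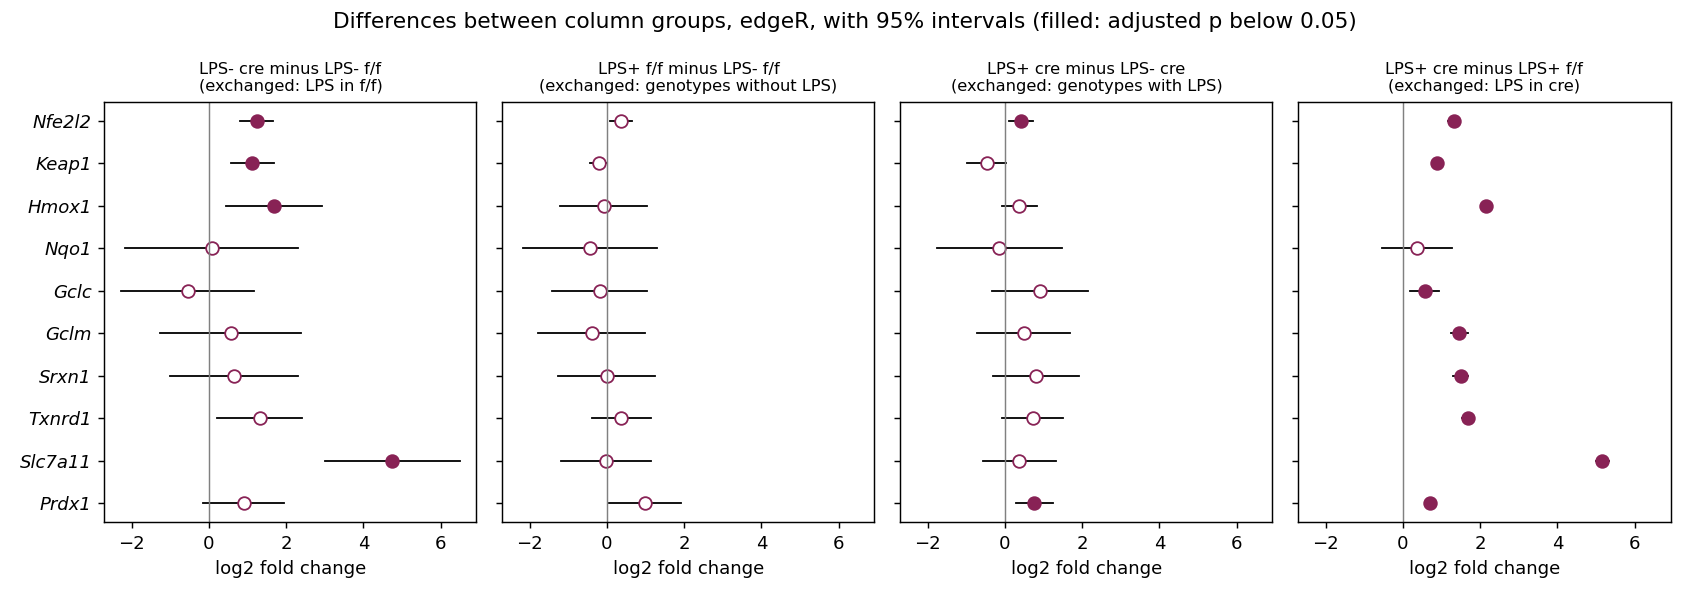
Log2 fold change of each gene in the 4 comparisons between column groups that differ in genotype or treatment, with 95% intervals from edgeR (filled points: adjusted p below 0.05). In LPS+ tlr4f/f-lysM-cre minus LPS+ tlr4f/f, 9 of 10 points are filled and intervals are narrow; in LPS- tlr4f/f-lysM-cre minus LPS- tlr4f/f, 4 are filled and the interval of Nqo1 runs from -2.17 to 2.30.

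These 2 comparisons share no library. The sign was the same in both for 9 of the 10 members (90.0%), where it was for 81.6% of the 13922 genes tested in both. In both comparisons 4 members were called higher at an adjusted p below 0.05, namely Slc7a11, Nfe2l2, Keap1 and Hmox1, or 40.0% against 16.7% of all genes. Gclc was the member with opposite signs.

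**Figure D3:**
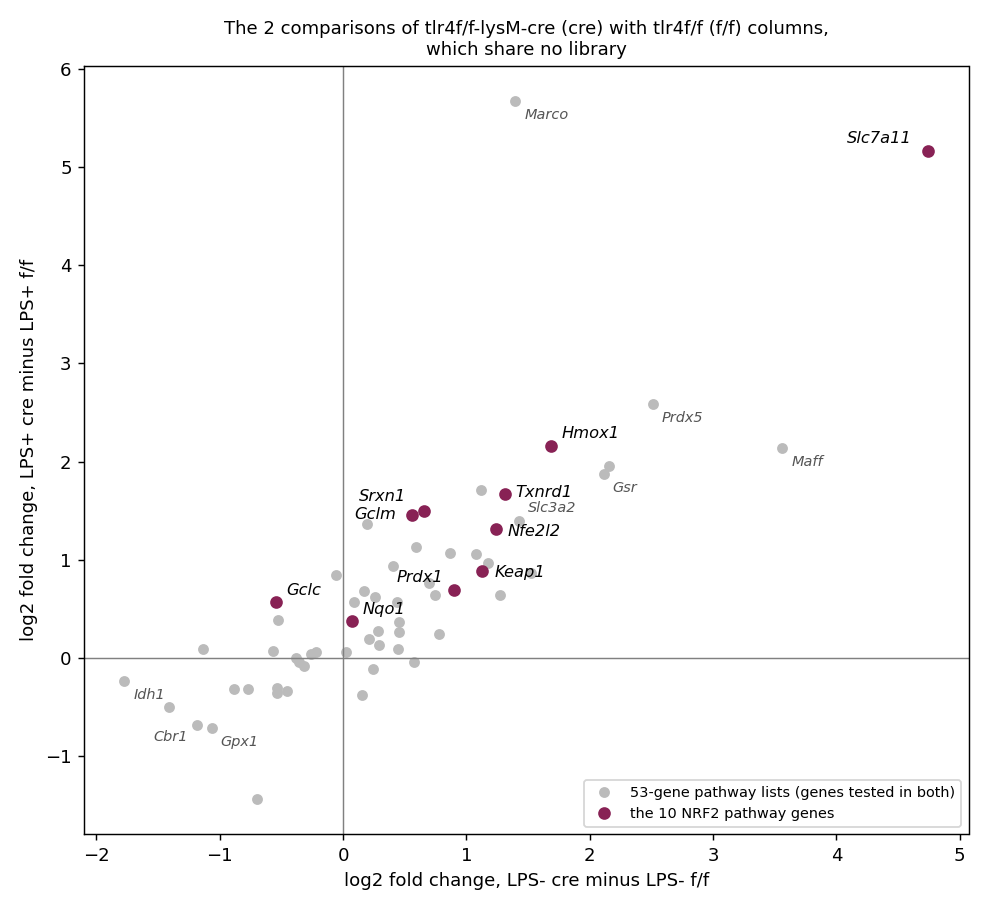
Log2 fold changes of LPS- tlr4f/f-lysM-cre minus LPS- tlr4f/f (horizontal) and LPS+ tlr4f/f-lysM-cre minus LPS+ tlr4f/f (vertical) for the 10 members and for the other pathway genes tested in both. Slc7a11 is far from the other members on both axes, and Gclc alone among the members is on the left of 0.

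LPS+ tlr4f/f against LPS- tlr4f/f (LPS in tlr4f/f as headed, genotype without LPS when exchanged) gave no call for any member with edgeR. The median of the members was -0.05 and that of all 14712 genes -0.03. There were 0 members at an adjusted p below 0.05, where 1.28% of genes were called in either direction, and 0 DEGs (likewise with DESeq2 and limma voom), where 0% of all genes were DEGs with edgeR, 3.16% with DESeq2 and 0.177% with voom. At an unadjusted p below 0.05 there were 2 members and 3626 genes. The members were Nfe2l2 (log2 fold change 0.37, 95% interval 0.08 to 0.66, adjusted p = 0.131) and Prdx1 (0.98, 0.05 to 1.92, adjusted p = 0.187). DESeq2 and limma voom each called 1 member, Nfe2l2, with an adjusted p of 0.0465 and 0.0435, and 15.6% and 8.71% of all genes. For Slc7a11 the difference was -0.03 with an interval of -1.19 to 1.14, and for Hmox1 it was -0.08 with an interval of -1.21 to 1.05. Without replicate 3 of LPS- tlr4f/f, in which Hmox1 was at 165 CPM, 14.3% of all genes and 3 members were called, namely Nfe2l2 (0.47, adjusted p = 0.0293), Keap1 (-0.27, adjusted p = 0.0482) and Hmox1 (-0.47, adjusted p = 0.0216).

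LPS+ tlr4f/f-lysM-cre against LPS- tlr4f/f-lysM-cre (LPS in tlr4f/f-lysM-cre as headed, genotype with LPS when exchanged) gave few calls among the members. A positive log2 fold change was found for 8 of 10 members, with a median of 0.45 against 0.03 over 14245 genes. No member was a DEG with edgeR, DESeq2 or limma voom (0 of 10), where 6.09%, 14.1% and 6.86% of genes were DEGs in either direction, and at an unadjusted p below 0.05 there were 2 members and 5746 genes. At an adjusted p below 0.05, 2 members were higher, where 12.5% of genes were, a share near that of the members. They were Prdx1 (0.76 ± 0.20, adjusted p = 0.0345) and Nfe2l2 (0.42 ± 0.13, adjusted p = 0.0495). Neither call held without replicate 2 of LPS- tlr4f/f-lysM-cre or without any one library of LPS+ tlr4f/f-lysM-cre (adjusted p 0.0541 to 0.185 for Nfe2l2 and 0.0538 to 0.119 for Prdx1), Nfe2l2 was also lost without replicate 1 of LPS- tlr4f/f-lysM-cre (0.0970) and Prdx1 without its replicate 3 (0.0523). Their log2 fold changes with a library left out were 0.32 to 0.46 for Nfe2l2 and 0.63 to 0.97 for Prdx1. Of all genes, 2.83% to 3.36% were called higher without any one library of LPS+ tlr4f/f-lysM-cre. The share was 13.6% without replicate 2 of LPS- tlr4f/f-lysM-cre. Without replicate 1 of LPS- tlr4f/f-lysM-cre, 4 members were called, all higher, where 12.6% of genes were, among them Gclc (1.58, adjusted p = 0.0364), Srxn1 (1.46, adjusted p = 0.0206) and Txnrd1 (1.10, adjusted p = 0.0226). With all 6 libraries these 3 genes had values of 0.91 (95% interval -0.33 to 2.14), 0.81 (-0.30 to 1.92) and 0.72 (-0.07 to 1.51), and Slc7a11 had 0.37 (-0.58 to 1.32). None of the 4 was called with edgeR, while limma voom called Txnrd1 (0.81, adjusted p = 0.0495). Stromal markers (188 to 1510 against 45.4 to 57.6 CPM) and neutrophil markers (13.3 to 170 against 5.25 to 7.23 CPM) were higher in LPS- tlr4f/f-lysM-cre. Neither list overlapped between the 2 groups, and their part in the result was not tested.

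The headings not in question were LPS+ tlr4f/f-lysM-cre and, as its reference, LPS- tlr4f/f, which differ in genotype and treatment at once. The DEGs among the members were 3, all higher, where 6.93% of 14595 genes were. These were Slc7a11 (5.12 ± 0.57, adjusted p = 0.00156), Txnrd1 (2.03 ± 0.32, adjusted p = 0.00437) and Nfe2l2 (1.66 ± 0.14, adjusted p = 0.000581). With Hmox1 (2.07 ± 0.48, adjusted p = 0.0176), Prdx1 (1.67 ± 0.39, adjusted p = 0.0171) and Keap1 (0.65 ± 0.10, adjusted p = 0.00381), 6 members were higher at an adjusted p below 0.05, where 20.4% of genes were. Gclm, Srxn1, Gclc and Nqo1 were not called with edgeR, with 95% intervals of -0.33 to 2.43, 0.20 to 2.74, -0.88 to 1.61 and -1.70 to 1.57. Srxn1 was called with DESeq2 (1.49, adjusted p = 0.00651) and limma voom (1.40, adjusted p = 0.00870), and Gclm with voom (1.18, adjusted p = 0.0351). Both tools gave 6 DEGs among the members, where 9.94% and 8.36% of genes were DEGs with a higher level. Leaving out replicate 1 of LPS- tlr4f/f, the library in which Nqo1, Gclc, Gclm and Srxn1 were highest of that group, brought the calls to 10 of 10 members and the DEGs to 6, all higher, where 19.8% and 6.69% of genes were. The DEGs numbered 5 without replicate 3 of LPS- tlr4f/f (7.91% of genes), 2 without its replicate 2 (6.07%) or without replicate 1 or 3 of LPS+ tlr4f/f-lysM-cre (2.83% and 3.17%), and 1 without replicate 2 of the latter (2.59%). Hmox1 and Prdx1 were not called without any one library of LPS+ tlr4f/f-lysM-cre (adjusted p 0.0555 to 0.0583), at log2 fold changes of 2.05 to 2.11 for Hmox1 and 1.66 to 1.69 for Prdx1.

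The interaction of genotype and LPS is the same contrast in both readings. No member passed it with edgeR at an adjusted p below 0.05 (0 of 10), where 6.99% of 15792 genes did, and 0 did with DESeq2 or limma voom, where 15.7% and 7.08% of genes did. At an unadjusted p below 0.05 there were 0 members and 3692 genes. The log2 estimates ran from -0.26 for Keap1 to 1.10 for Gclc, whose 95% interval was -0.66 to 2.87. For Hmox1 the estimate was 0.46 (-0.71 to 1.63), and it was called without replicate 3 of LPS- tlr4f/f (0.88, adjusted p = 0.0413), where 7.15% of genes were. For Nfe2l2 it was 0.05 (-0.35 to 0.45), the narrowest of the 10 intervals. For Slc7a11 it was 0.41 (-1.09 to 1.90).

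The members varied far more between libraries of the groups labelled LPS- than of those labelled LPS+. The median SD of log2 CPM over the 10 genes was 1.00 in LPS- tlr4f/f and 0.796 in LPS- tlr4f/f-lysM-cre, against 0.326 and 0.373 over 15792 genes. It was 0.102 in LPS+ tlr4f/f, and 0.100 in LPS+ tlr4f/f-lysM-cre, against 0.116 and 0.128 over all genes. The members thus stood above the other genes in spread where the groups were labelled LPS-, and slightly below them where the groups were labelled LPS+. In each group 1 library was the highest for most members. Replicate 1 of LPS- tlr4f/f was the highest of its group for 8 of 10 members (32.0% of all genes), and its replicate 3 the lowest for 8 (37.8%). Replicate 1 of LPS- tlr4f/f-lysM-cre was the highest for 7 members (31.4%), and its replicate 2 the lowest for 8 (32.1%). In the groups labelled LPS+, where the spread was smaller, replicate 3 was the highest for 7 members in tlr4f/f (33.4%) and for 7 in tlr4f/f-lysM-cre (35.8%). Nqo1 was highest over lowest by 5.04-fold in LPS- tlr4f/f and 7.32-fold in LPS- tlr4f/f-lysM-cre, Gclm by 4.62-fold and 4.80-fold, and Slc7a11 by 3.30-fold and 2.99-fold. Nfe2l2 went the other way in the groups labelled LPS-, lowest in replicate 1 of both, and it spanned at most 1.34-fold there. Keap1 was another exception, highest at 304 CPM in replicate 2 of LPS- tlr4f/f-lysM-cre and lowest at 166 CPM in its replicate 3. Stromal marker levels of the same libraries were 669, 61.7 and 9.48 CPM and 982, 188 and 1510 CPM, with replicate 2 of LPS- tlr4f/f-lysM-cre the lowest of its group for both, and their part in this spread was not tested. Without replicate 1 of both groups labelled LPS-, an alternative chosen after seeing the data, 2 members were called higher in the comparison of these groups and 0 were DEGs, where 10.9% and 1.81% of genes were.

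**Figure D4:**
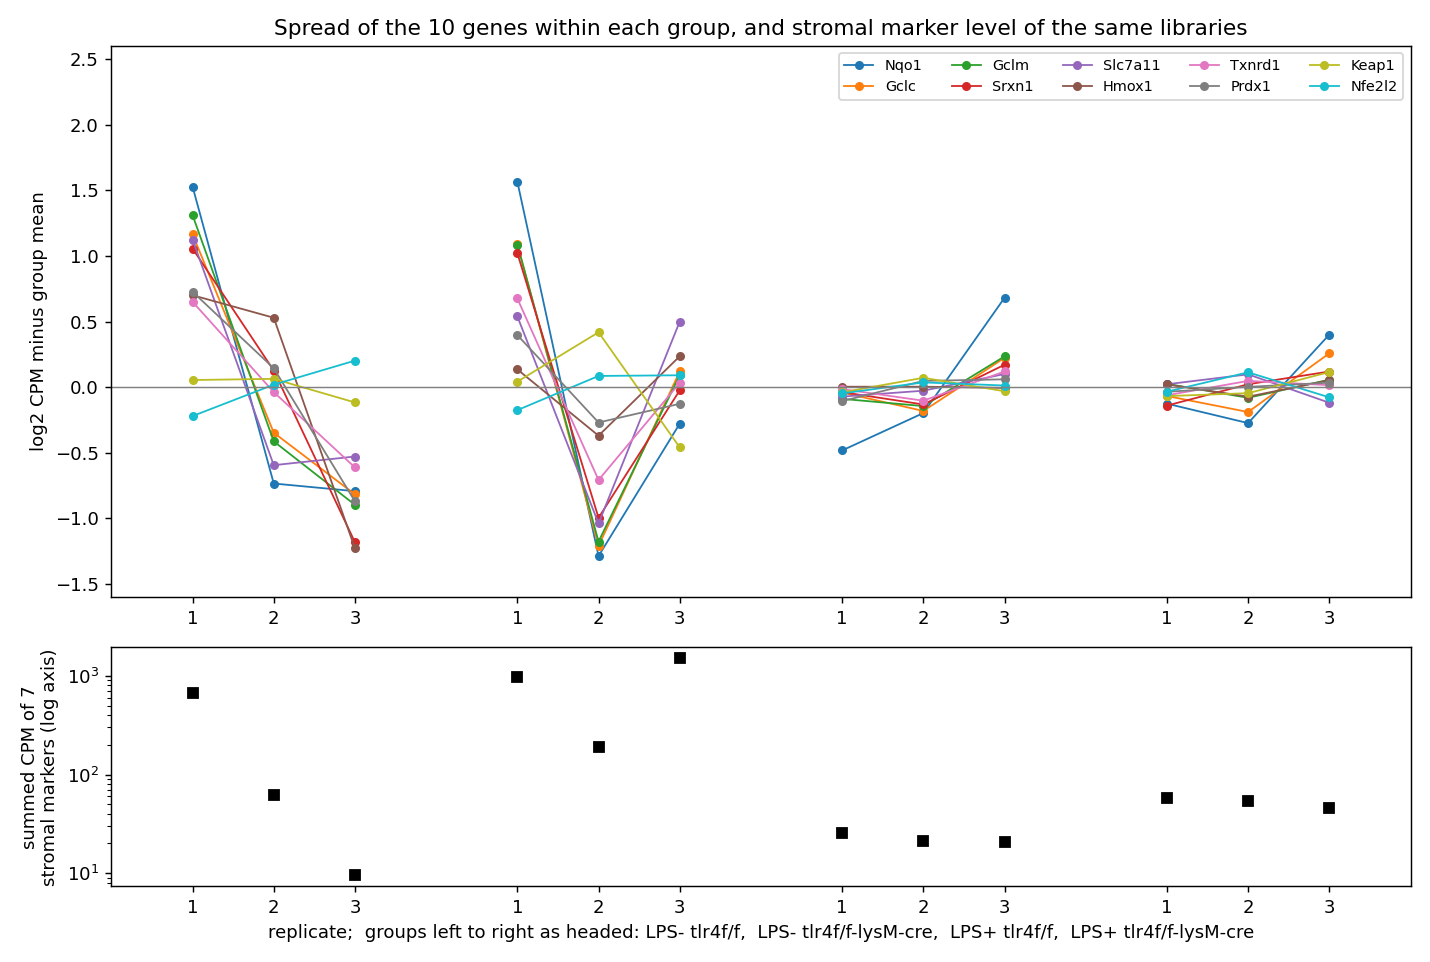
Upper panel, log2 CPM of each member minus its group mean, by library, with lines joining the values of a gene for tracing only. Lower panel, summed CPM of 7 stromal markers in the same libraries (log axis). Replicate 1 lies above the group mean for 9 of 10 members in both groups labelled LPS-. In the groups labelled LPS+ the members lie between -0.19 and 0.26 except Nqo1, which runs from -0.48 to 0.68.

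Other genes of the pathway were taken as 5 lists with 53 genes in all, of which 51 or 52 were tested. In LPS+ tlr4f/f-lysM-cre against LPS+ tlr4f/f, 26 were higher and 11 lower at an adjusted p below 0.05, where 30.5% of all genes were higher and 31% lower. Of the list genes 11 were DEGs, all higher, where 10.8% of all genes were, and the median log2 fold change was 0.26. In LPS- tlr4f/f-lysM-cre against LPS- tlr4f/f, 9 were higher and 7 lower of 52, near the 17.9% and 19.4% of all genes, with a median of 0.23. There were 7 higher and 3 lower DEGs, where 9.26% of all genes were higher DEGs and 17.1% were DEGs in either direction. Over these 2 comparisons, 80.4% of the 51 list genes tested in both had the same sign and 17.6% were called higher in both, against 81.6% and 16.7% of all genes. In LPS+ tlr4f/f against LPS- tlr4f/f, 0 of 51 were called with edgeR, where 1.28% of all genes were, and the median of the list genes was -0.05. An unadjusted p below 0.05 was found for 17 of these 51 and for 3626 of all 14712 genes. In LPS+ tlr4f/f-lysM-cre against LPS- tlr4f/f-lysM-cre, 5 were higher and 4 lower, where 12.5% of all genes were higher, and 1 was a DEG, where 6.09% of all genes were.

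The lists are given one by one against the same shares of all genes, which were 30.5% higher and 31% lower between the groups labelled LPS+, and 17.9% higher and 19.4% lower between those labelled LPS-. Among 12 regulators and partners of NRF2, 9 were higher and 1 lower in LPS+ tlr4f/f-lysM-cre against LPS+ tlr4f/f, and 5 higher and 0 lower in LPS- tlr4f/f-lysM-cre against LPS- tlr4f/f. Maff, a small MAF partner, was at 1.54 to 5.18 CPM in the 6 libraries labelled tlr4f/f, at 59.4, 25.0 and 43.1 CPM in LPS- tlr4f/f-lysM-cre and at 21.1, 20.6 and 16.2 CPM in LPS+ tlr4f/f-lysM-cre. Maff rose by 3.56 ± 0.55 (adjusted p = 0.00447) between the groups labelled LPS- and by 2.14 ± 0.12 (adjusted p = 1.28e-08) between those labelled LPS+. It fell by 1.13 ± 0.32 (adjusted p = 0.0397) in LPS+ tlr4f/f-lysM-cre against LPS- tlr4f/f-lysM-cre. The small MAF genes Mafk (0.97 ± 0.08, adjusted p = 1.22e-06) and Mafg (1.13 ± 0.06, adjusted p = 6.00e-09) also rose between the groups labelled LPS+. Between the groups labelled LPS-, Mafk rose (1.18 ± 0.13, adjusted p = 0.00141) and Mafg had a value of 0.59 ± 0.25 (adjusted p = 0.106). Bach1, which competes with NRF2 for small MAF partners and represses Hmox1, fell by 0.37 ± 0.05 (adjusted p = 7.03e-05) between the groups labelled LPS+ and had a value of 0.15 ± 0.14 (adjusted p = 0.430) between those labelled LPS-.

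Among 14 genes of glutathione synthesis and use, 6 of 12 tested were higher and 3 lower in LPS+ tlr4f/f-lysM-cre against LPS+ tlr4f/f (all genes 30.5% and 31%), and 2 of 13 were higher and 2 lower in LPS- tlr4f/f-lysM-cre against LPS- tlr4f/f (17.9% and 19.4%). Slc3a2, the heavy chain that pairs with the product of Slc7a11, rose by 1.39 ± 0.05 (adjusted p = 3.14e-10) and 1.43 ± 0.25 (adjusted p = 0.00661) in these 2 comparisons. That is a smaller difference than the 5.16 and 4.75 of Slc7a11. Gsr, the glutathione reductase, rose by 1.87 ± 0.07 (adjusted p = 3.79e-10) and 2.11 ± 0.63 (adjusted p = 0.0410). Gpx1, the cytosolic glutathione peroxidase, fell by 0.71 ± 0.08 (adjusted p = 2.78e-05) and by 1.07 ± 0.17 (adjusted p = 0.00447).

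Among 9 thioredoxin and peroxiredoxin genes, 4 were higher and 2 lower in LPS+ tlr4f/f-lysM-cre against LPS+ tlr4f/f, and 2 higher and 1 lower in LPS- tlr4f/f-lysM-cre against LPS- tlr4f/f. The shares of all genes were again 30.5% and 31%, and 17.9% and 19.4%. Prdx5 rose in both, by 2.59 ± 0.08 (adjusted p = 4.87e-11) and by 2.51 ± 0.25 (adjusted p = 0.00112). It fell by 0.87 ± 0.12 (adjusted p = 0.00482) in LPS+ tlr4f/f-lysM-cre against LPS- tlr4f/f-lysM-cre, where Prdx1 rose. Of 6 genes of NADPH supply, 3 were higher and 1 lower between the groups labelled LPS+, and 0 higher and 1 lower between those labelled LPS-. Idh1, the cytosolic NADP-dependent isocitrate dehydrogenase, was at 53.2, 61.9 and 70.1 CPM in LPS- tlr4f/f-lysM-cre and at 165 to 293 CPM in the other 9 libraries. It fell by 1.77 ± 0.26 (adjusted p = 0.00356) in LPS- tlr4f/f-lysM-cre against LPS- tlr4f/f and rose by 1.56 ± 0.13 (adjusted p = 0.00126) in LPS+ tlr4f/f-lysM-cre against LPS- tlr4f/f-lysM-cre. Of 12 haem, iron and other target genes, 4 were higher and 4 lower between the groups labelled LPS+, and 0 higher and 3 lower between those labelled LPS-, which is close to the shares of all genes for the former. Marco, a scavenger receptor, was at 28.3 to 33.7 CPM in LPS+ tlr4f/f-lysM-cre and at 0.468 to 0.748 CPM in LPS+ tlr4f/f, and rose by 5.67 ± 0.15 (adjusted p = 1.15e-11). In LPS- tlr4f/f it was at 44.1, 29.2 and 0.0187 CPM, the last being 1 count, and in LPS- tlr4f/f-lysM-cre, its highest group, at 98.5, 70.7 and 26.4 CPM. Between the groups labelled LPS-, Marco was not called (1.40 ± 1.52, adjusted p = 0.501). Cbr1, a carbonyl reductase, fell by 0.68 ± 0.09 (adjusted p = 2.04e-05) between the groups labelled LPS+ and by 1.18 ± 0.21 (adjusted p = 0.00687) between those labelled LPS-.

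For Hmox1 and Nfe2l2, the genes with the most similar pattern over the 12 libraries were sought among 15792 genes, by the root mean square difference of log2 CPM centred per gene. For Hmox1 they were Jag1 (0.222), Abca1 (0.273) and Micall2 (0.331), and the nearest member was Txnrd1 (0.456). For Nfe2l2 they were Ccdc50 (0.191), Tmem68 (0.194) and Rab10 (0.196), and the nearest member was Keap1 (0.466). Slc7a11 was the farthest member from both, at 1.56 and 1.96, by a measure that also grows with the size of a change. Like Hmox1 and Nfe2l2, it was higher in every library labelled tlr4f/f-lysM-cre than in any labelled tlr4f/f.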

How the data were processed

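RNA of BMDMs was sequenced as paired reads in 12 libraries, 3 for each of 4 column headings. Per the labels, rRNA was removed, while poly-A RNA-seq is also named; the strand setting of the counting is not given in the sources used here. The authors trimmed reads with Trimmomatic 0.36, aligned them to mm10 with HISAT2, counted them with HTSeq and deposited whole-number counts for 115140 transcripts, without normalization. Transcripts of a gene share reads, so the transcript with the highest total was kept for each gene. The deposited transcript lengths in bases were used for CPM per kb only. Depth lay between 33577440 and 56445989 counts per library. Reads carry no molecular identifiers, so the floor of 3 counts covers counting error only.

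The members, lists and tests were chosen with earlier results of these data known. Libraries were grouped by column heading and every comparison is named in both readings of the headings in question. Each comparison used the 6 libraries compared, with edgeR 4.0.16 run in R 4.3.3 (robust quasi-likelihood test after filterByExpr and TMM) and Benjamini-Hochberg adjustment over all genes tested; the interaction used all 12. The paper's limits for DEGs were kept (fold change over 2, adjusted p under 0.01), although its tool was DESeq. The 10 members are given in each comparison. Other named genes are Tlr4, Lyz2 and Il1b as a check of the headings, Bach1 and the small MAF genes, the DEG with the largest change per pathway list, direction and comparison, and the 3 genes most like Hmox1 and Nfe2l2. Log2 CPM used a prior count of 2. Gene positions are of the GENCODE annotation of mm10, and promoter windows were read with Python 3.11.15. The alternatives were DESeq2 1.42.0, voom of limma 3.58.1 with sample quality weights, RLE factors, a minimum of 1 count over the libraries or 10 in every library, the sum over transcripts, all 12 libraries in 1 fit, the replicate number as a block and each library left out. The fits were also run on simulated counts for the comparison of the groups labelled LPS- and for that of the groups labelled LPS+. Those counts were drawn without the unequal TMM factors and with fewer changed genes than the data held. No result given here rests on them.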

Additional observations from a re-analysis of the deposited data

Results flagged for a closer look

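No member passed the test of an interaction of genotype and LPS with edgeR (0 of 10). At the same adjusted p below 0.05, 6.99% of 15792 genes did. Of 14 other genes (Tlr4, Lyz2, Il1b, Bach1, the 3 small MAF genes and the 7 named from the pathway lists), 3 did, with edgeR over 12 libraries, and the genes most like Hmox1 and Nfe2l2 were not among those examined. The 7 list genes were picked as DEGs with the largest change in these data, and Tlr4, Lyz2 and Il1b as the check of the headings. The count of 3 is therefore not comparable with the share of all genes. For Idh1 the interaction was 1.52 ± 0.28 on the log2 scale (SE, adjusted p = 0.0124). For Lyz2 it was 3.18 ± 0.58 (adjusted p = 0.0120). For Bach1, which represses Hmox1, it was -0.54 ± 0.14 (adjusted p = 0.0453). The value is the same whether or not the headings in question are exchanged.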

How the results depend on the processing

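In LPS+ tlr4f/f-lysM-cre against LPS+ tlr4f/f, 6 members were DEGs in each alternative except the fit of all 12 libraries, which gave 4 DEGs and 5 members at an adjusted p below 0.05. Among the log2 fold changes of the members, 452 values outside the left-out libraries kept their direction and side of the adjusted p of 0.05. Another 14 changed sign, whatever their call. Of those that kept their sign, 12 gained a call and 12 lost one. With a library left out, 355 kept both and 29 changed sign, whatever their call. Of those that kept their sign, 15 gained a call and 21 lost one. Nqo1 in LPS+ tlr4f/f-lysM-cre against LPS- tlr4f/f, without replicate 1 of the latter, changed sign and also gained a call. Counts of calls and DEGs are not among these values. The cause of these changes was not tested.

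For LPS- tlr4f/f-lysM-cre against LPS- tlr4f/f, DESeq2 and the fit of all 12 libraries each gave 5 DEGs among the members, all higher, where 14.4% and 12.7% of genes were, and without replicate 1 of both groups (chosen after seeing the data) 2 members were called and 0 were DEGs. With each library left out in turn there were 0 to 1 DEGs, and log2 fold changes turned sign within ranges of -1.10 to 1.28 for Nqo1, -1.21 to 0.28 for Gclc and -0.10 to 1.53 for Gclm. For LPS+ tlr4f/f against LPS- tlr4f/f, DESeq2 and voom each called 1 member, where 15.6% and 8.71% of genes were called. With a library left out 0 to 3 members were called, where 0% to 14.3% of genes were. The sign turned for Slc7a11 with voom (0.13) and with the sum over transcripts (0.060), and for Srxn1 with that sum (0.0038). With a library left out the ranges were -0.47 to 0.25 for Hmox1, -0.85 to 0.79 for Nqo1, -0.52 to 0.65 for Gclc, -0.75 to 0.59 for Gclm, -0.40 to 0.66 for Srxn1 and -0.31 to 0.79 for Slc7a11. For LPS+ tlr4f/f-lysM-cre against LPS- tlr4f/f-lysM-cre, RLE factors, the minimum of 1 count and the fit of all 12 libraries each left 1 member called. That member was higher each time, where 11.3%, 6.41% and 14.3% of genes were. Voom called 3 members, all higher, where 12% of genes were. Left-out libraries gave 0 to 4 called members in either direction, where 7.01% to 34% of genes were called. Nqo1 turned to 0.15 with voom and ran from -0.57 to 1.04 with a library left out. For LPS+ tlr4f/f-lysM-cre against LPS- tlr4f/f, DESeq2 and voom each gave 6 DEGs and the fit of all 12 libraries 5. All were higher, where 9.94%, 8.36% and 7.49% of genes were higher DEGs. The replicate number as a block gave 2 (3.66% of genes). Left-out libraries gave 1 to 6 DEGs (2.59% to 7.91% of genes) and 4 to 10 called members (11.9% to 23.4%), all higher. Nqo1 turned to 0.19 with voom and ran from -0.43 to 1.14 with a library left out. In the interaction, Nfe2l2 turned to -0.021 with DESeq2 and with RLE factors, and Slc7a11 to -0.16 without replicate 1 of both groups labelled LPS-. With a library left out, 0 to 1 members were called, where 2.24% to 9.45% of genes were. The ranges that crossed 0 were -0.032 to 0.17 for Nfe2l2, -0.89 to 1.49 for Nqo1, -0.059 to 1.58 for Gclm, -0.018 to 0.76 for Txnrd1, -0.37 to 0.70 for Slc7a11 and -0.62 to 0.12 for Prdx1.

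Whether the replicate numbers pair the libraries was not settled, and the main tests used no pairing. Deviations from the group mean were correlated between libraries. Between the groups labelled LPS-, r was 0.47, 0.34 and 0.014 for libraries with the same number and -0.49 to 0.20 for the others. Between the groups labelled LPS+, it was 0.058, 0.072 and 0.19 for the same number and -0.11 to 0.045 for the others. With the replicate number as a block, 0 members were called in LPS+ tlr4f/f-lysM-cre against LPS- tlr4f/f-lysM-cre, where 17.2% of genes were and Nqo1 was at 0.35, and 10, all higher, in LPS+ tlr4f/f-lysM-cre against LPS+ tlr4f/f, where 31.9% of genes were. In LPS- tlr4f/f-lysM-cre against LPS- tlr4f/f the count of 4 higher stayed (18.4% of genes), but Hmox1 was no longer called (1.85, adjusted p = 0.0643) and Txnrd1 was (1.29, adjusted p = 0.0336). Under that block LPS+ tlr4f/f against LPS- tlr4f/f gave 0.13 for Hmox1, 0.073 for Gclc, 0.25 for Srxn1 and 0.23 for Slc7a11, and Nqo1 was at 0.37 in LPS+ tlr4f/f-lysM-cre against LPS- tlr4f/f.

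Counts of all genes moved too. DEGs in LPS+ tlr4f/f against LPS- tlr4f/f were 0 with edgeR and up to 464 in other settings. With a library left out they were 0 to 182. In LPS+ tlr4f/f-lysM-cre against LPS- tlr4f/f-lysM-cre they were 867 with edgeR and between 212 and 2006 in other settings. With a library left out they were 4 to 1180, and 4 to 15 when that library was any one of LPS+ tlr4f/f-lysM-cre. The other pathway genes were not run under the alternatives. The lowest count of a member was 100, for Nqo1, so the floor of 3 counts did not bear on the members.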
